A study of Homo sapiens with 10 samples.

Results

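H3K9me3 peaks of HEK293T cells were compared between a control condition (CT) and a CGGBP1 knockdown (KD), as positions in the genome build hg38. HEK293T is an established human embryonic kidney cell line. CT cells carried a lentiviral non-targeting shRNA and endogenous CGGBP1, KD cells carried a lentiviral shRNA that silences CGGBP1, and both were selected with puromycin. The peaks are every interval of the H3K9me3 list of each condition, 14546 in CT and 8356 in KD, which is 22902 of the 538999 intervals deposited for the series. A list of 2676 peaks came from input DNA, which was sequenced with no antibody. The labels do not give the CGGBP1 status of the input cells. Each list came from 1 library of sonicated chromatin sequenced on an Ion Torrent S5 instrument, without barcodes per the labels. Each condition has 1 library, so no difference between CT and KD has a replicate check and no p-value is given. The lists hold positions only, so the height of a peak and the number of reads behind it are unknown. The 95% intervals given in brackets after a share are exact Clopper-Pearson intervals and cover counting error only. The antibody that the labels name for H3K9me3 is the one the study's methods name for H3K27me3, and the reverse, so each list is called here by the mark in its title.

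H3K9me3 is the trimethylated form of lysine 9 of histone H3. It marks constitutive heterochromatin at satellite DNA around centromeres and silences transposable elements such as L1 and other interspersed repeats. CTCF is a zinc finger protein that binds insulators and can separate neighbouring chromatin domains. CGGBP1 is a small DNA-binding protein first found through its binding to CGG repeats, and it has been tied to transcription and DNA methylation at interspersed repeats.

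Repetitive sequence recurred among the peaks, and 24-base runs of alpha satellite DNA that many peaks of a class held are shown because they tell which satellite the peaks lie on. A peak is called kept when a CT peak overlapped a KD peak by at least 1 bp, and CT-only or KD-only when it overlapped no peak of the other condition. Peaks that overlapped an input peak were left out. Runs were ranked in each class, each next run being the one in most of the peaks that held no run ranked before it. Each is given with its first place within the peaks of the class named first, in hg38 and with its strand, and capitals mark bases of the CENP-B box, the motif bound by the centromere protein CENP-B in alpha satellite DNA.
CT-only run 2, also kept run 2 (chr1:122582609-122582632, minus strand): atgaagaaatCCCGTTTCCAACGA
KD-only run 2 (chr1:121774948-121774971, minus strand): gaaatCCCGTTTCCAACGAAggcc
KD-only run 3 (chr1:121755261-121755284, minus strand): tgaaatctccacttgcaaattcca

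CT-only run 2, which was also kept run 2, lay in 186 of 2766 kept peaks (6.72%) and in 207 of 9823 CT-only peaks (2.11%), and it occurs 24574 times in hg38. The same satellite run lay in 207 of the CT peaks and 216 of the KD peaks that overlap input. It thus took a smaller share of the CT-only than of the kept peaks. In KD-only peaks the satellite run with the whole box was in 113 of 3592 (3.15%) and the other satellite run in 111 (3.09%).

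Whole peaks without repeated sequence are shown because few of them were shared. The first kept peak whose 24-mers all have fewer than 10 copies in hg38 lies in a coding exon of COL6A3, the gene of a collagen VI chain. The first KD-only peak of that kind is 157 bp long and lies in an intron of RERE. Both strands were counted for copies, and the sequences are given on the plus strand of hg38.
Kept, none repeated (chr2:237394871-237395121): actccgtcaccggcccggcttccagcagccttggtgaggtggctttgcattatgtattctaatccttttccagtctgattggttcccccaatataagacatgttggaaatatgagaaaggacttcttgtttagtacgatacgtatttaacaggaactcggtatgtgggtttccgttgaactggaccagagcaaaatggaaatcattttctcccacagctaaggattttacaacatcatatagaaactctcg
KD-only, none repeated (chr1:8641548-8641704): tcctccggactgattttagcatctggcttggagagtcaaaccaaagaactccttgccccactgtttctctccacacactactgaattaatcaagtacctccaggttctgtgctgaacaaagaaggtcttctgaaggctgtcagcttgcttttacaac

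KD held 0.574 times as many H3K9me3 peaks as CT, and most CT peaks had no counterpart in KD. The paper reports fewer mapped H3K9me3 reads in KD than in CT, and a smaller mapped share of all reads. The part this has in the peak numbers was not tested. A KD peak overlapped 4588 of the 14546 peaks of CT, or 31.5% (30.8 to 32.3). A CT peak overlapped 4567 of the 8356 peaks of KD, or 54.7% (53.6 to 55.7). The peaks covered 2.98 Mb in CT and 1.84 Mb in KD, and 1 Mb was covered in both, which was 33.6% of the CT bases and 54.3% of the KD bases. When only the widest CT peaks were used, as many as the KD list holds, the shares were 51.1% of CT and 50.8% of KD peaks.

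The peaks that overlapped input were almost the same in both conditions. They numbered 1957 in CT and 1999 in KD. Of these, 93.1% (91.9 to 94.2) of the CT peaks and 90.1% (88.8 to 91.4) of the KD peaks were shared. Without them, 12589 CT and 6357 KD peaks remained, a ratio of 0.505, and the shared part dropped to 2766 CT peaks (22%, 21.3 to 22.7) and 2765 KD peaks (43.5%, 42.3 to 44.7). The difference in number therefore lay in the peaks off input, with 9823 CT-only and 3592 KD-only peaks. CT-only peaks were not displaced by short distances. Their median distance to the nearest KD peak was 164 kb, and 2.69% had one within 1 kb. KD-only peaks lay a median of 43.9 kb from the nearest CT peak, with 6.26% within 1 kb.

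**Figure D1:**
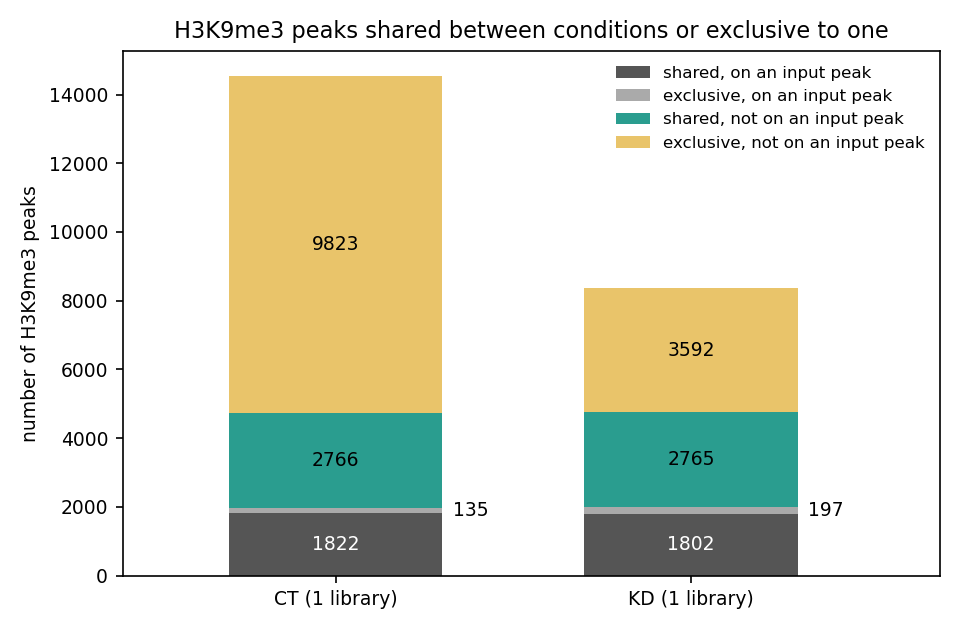
Number of H3K9me3 peaks (y axis) in CT and KD, 1 library each, stacked by overlap with an input peak and with a peak of the other condition. The segments on input are of similar size in CT and KD (1822 and 1802 shared), the shared segments off input are too (2766 and 2765), and the segments exclusive to 1 condition differ most (9823 and 3592).

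The exclusive peaks were narrow. The narrowest width a list holds was 161 bp in CT and 157 bp in KD, and many peaks had exactly that width. The methods give a minimum length of 200 bp for peaks of unmasked reads, and both lists hold narrower ones. A median at or near the narrowest width is a value at the lower end of its list. The part of peak calling in these widths was not tested. It was the width of 36.1% of all CT peaks and 21.1% of all KD peaks. Off input, it was the width of 50.4% (49.4 to 51.4) of CT-only peaks and 40.6% (39.0 to 42.3) of KD-only peaks, but of 9.07% (8.03 to 10.2) of kept peaks. The median width was 161 bp for CT-only, 206 bp for kept and 162 bp for KD-only peaks. Over all peaks the median was 170.5 bp in CT and 195.0 bp in KD. This difference of 24.5 bp turned to -21.0 bp when only the widest CT peaks were used, as many as the KD list holds. That setting keeps every KD peak and picks CT peaks by width, so the change of sign is part of the choice.

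Wide peaks were few and mostly shared or on input. Over 500 bp there were 129 CT and 150 KD peaks, of which 120 and 136 overlapped input. Over 1000 bp there were 15 in CT and 27 in KD. The widest peak of each list, 3223 bp in CT and 3251 bp in KD, lay on mitochondrial DNA and overlapped input. Off input, 7 of 9 CT peaks and 13 of 14 KD peaks over 500 bp were shared. The widest of these in each condition lay in THAP9 on chromosome 4. Of the 9 in CT, 6 lay between 40 and 41 Mb of chromosome 10, at places with no annotated gene. A shared KD peak of 613 bp lay in MOCOS and a shared CT peak of 565 bp in FRAS1, both made almost wholly of repeated 24-mers.

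Shared peaks lay almost wholly on repeated sequence. A 24-mer was counted as repeated when it occurs at least 10 times in hg38 on either strand, which holds for 15.4% of all 24-mers of the reference. Under the peaks the share was 62.8% in CT and 77.9% in KD. By class it was 45.0% under CT-only, 59.3% under KD-only and 92.6% under kept peaks, and 85.5% and 83.9% under the CT and KD peaks on input. The median copy number of a peak's 24-mers had a median of 2 over CT-only peaks, 579 over KD-only peaks and 3610 over kept peaks.

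Peaks on sequence that is not repeated were rarely shared. Of 4058 CT peaks off input without a repeated 24-mer, 10 overlapped a KD peak, or 0.246% (0.118 to 0.453), against 31.1% (29.9 to 32.4) of those with some and 34.4% (32.7 to 36.1) of those with only repeated 24-mers. In KD the corresponding shares were 12 of 1123 (1.07%, 0.553 to 1.86), 52.3% (50.5 to 54.1) and 53.0% (50.9 to 55.2). Peaks without a repeated 24-mer made up 41.2% of CT-only, 30.9% of KD-only and 0.362% of kept peaks. Number followed the same line, since KD held 0.277 times as many of them as CT.

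Width and repeats were then counted jointly. Among CT peaks wider than the narrowest, 0.552% of 1449 without a repeated 24-mer were kept, against 42.4% of 3630 with some and 41.9% of 2306 with only repeated ones. At the narrowest width the CT shares were 0.0767%, 8.03% and 13.0%. In KD, the wider peaks were shared in 1.97%, 59.7% and 59.7%, and the narrowest in 0.450%, 21.7% and 28.5%. The low share of peaks without repeated sequence was thus seen at both widths, and the low share of narrow peaks in every class of repeat. The part that read placement among the copies of a repeat has in these shares was not tested.

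**Figure D2:**
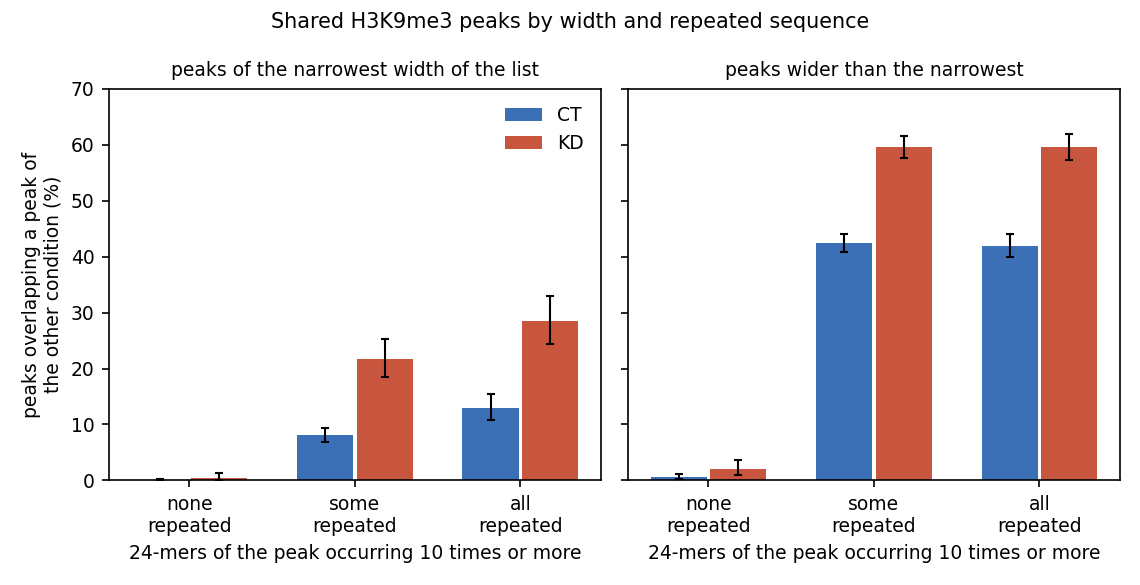
Share of H3K9me3 peaks off input that overlap a peak of the other condition (y axis, percent), by the share of the peak's 24-mers that occur at least 10 times in hg38, for peaks of the narrowest width (left) and wider peaks (right) of CT (blue) and KD (red). Bars are shares and lines are exact 95% intervals for counting error. With no repeated 24-mer the shares lie at 1.97% or below, and wider peaks with repeated sequence reach 41.9% to 59.7%.

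Satellite motifs were present in more of the kept than of the exclusive peaks. The CENP-B box, searched on both strands by its essential bases (TTCG, NNNNA and NNCGGG in a row, where N is any base), was in 538 of 2766 kept peaks (19.5%, 18.0 to 21.0), in 5.85% (5.40 to 6.34) of CT-only and in 12.9% (11.8 to 14.0) of KD-only peaks. It was also in 37.5% of CT and 36.3% of KD peaks on input, and in 0.872% of consecutive 200 bp windows of the genome. A tandem pair of GGAAT, the unit of satellites II and III, was in 1.48% of kept, 0.193% of CT-only and 0.585% of KD-only peaks, with 0.141% of windows. A tandem pair of TTAGGG, the telomere repeat, was in 3 of 9823 CT-only peaks (0.0305%, 0.00630 to 0.0892) and in no other peak off input. It was in 0.00643% of windows. A tandem triplet of CGG, the repeat that gave CGGBP1 its name, was in 0 of 12589 CT peaks off input, which allows up to 0.0293%. It was in 2 of 6357 KD peaks off input (0.0315%, 0.00381 to 0.114) and in 0.0689% of windows. These are matches of letters within peaks of unlike width, and peaks are wider in the kept class.

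Every one of the chromosomes 1 to 22 and X had fewer H3K9me3 peaks off input in KD than in CT. Over the primary chromosomes the density was 4.21 peaks per Mb of known sequence in CT and 2.11 in KD, a ratio of 0.502. Chromosome 19 had the highest density in both conditions, 6.26 in CT and 4.09 in KD. Many of its peaks lay in 2 bins of 1 Mb without protein-coding genes, from 25 to 26 Mb with 30 CT-only, 35 kept and 30 KD-only peaks, and from 26 to 27 Mb with 34, 38 and 26. Chromosome 22 followed in both, with 5.44 and 3.68. The ratio of KD to CT was lowest on chromosome 6 (0.408) and highest on chromosome 21 (0.855), where density went from 4.29 to 3.67. Kept peaks made up 13.6% (11.1 to 16.3) of the CT peaks of chromosome 6 and 38.4% (31.1 to 46.1) of those of chromosome 21.

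**Figure D3:**
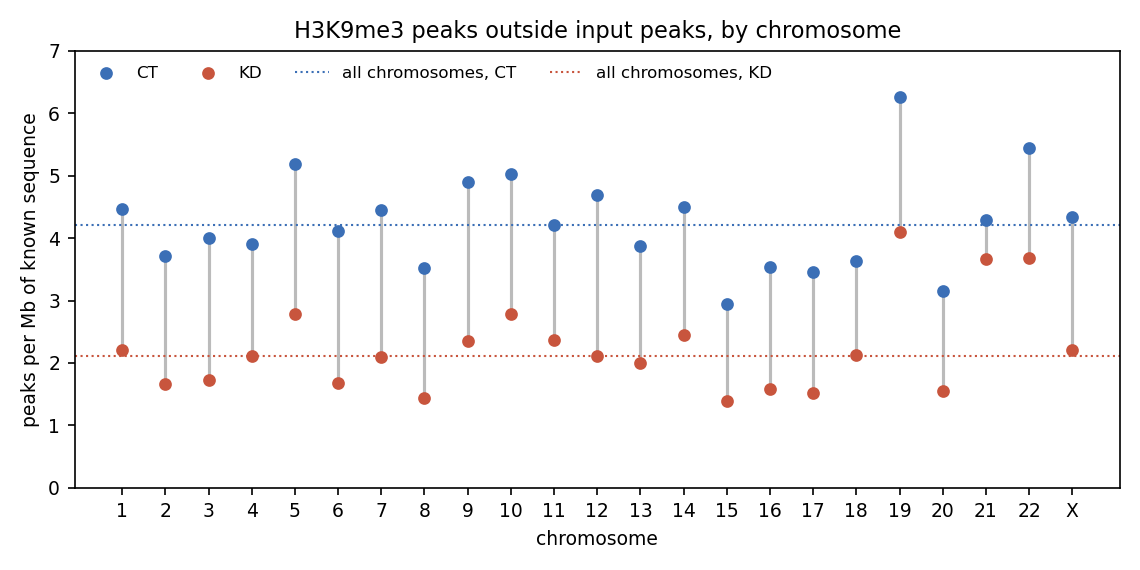
H3K9me3 peaks off input per Mb of known sequence (y axis) on chromosomes 1 to 22 and X in CT (blue) and KD (red), 1 library each. Dotted lines give the density over all primary chromosomes, 4.21 in CT and 2.11 in KD. All 23 red points lie below their blue point, with the smallest gap in proportion on chromosome 21.

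Part of the peaks lay in groups, a larger part in KD. When peaks of 1 list within 10 kb of each other were taken as a group, 25.3% of CT and 36.3% of KD peaks were in groups of 2 or more. Without peaks on input these shares were 16.5% and 22%. The largest group held 54 peaks in CT (chr1:143184636-143275926) and 55 in KD (chr9:60552893-60687582), and without peaks on input the largest had 14 and 10, both within chromosome 10. In bins of 1 Mb, the 10 fullest bins held 4.15% of CT-only, 13.7% of kept and 8.35% of KD-only peaks. The bin chr10:40000001-41000000 led all these classes, with 57 CT-only, 59 kept and 41 KD-only peaks, 69 input peaks and no protein-coding gene. The 10 fullest bins of CT-only and of kept peaks lay on chromosomes 1, 4, 5, 7, 10 and 19, and all but the bin from 51 to 52 Mb of chromosome 4 held no protein-coding gene. At least 1 CT-only peak lay in 2710 of 3102 bins, against 1240 bins for kept and 1704 for KD-only peaks.

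Gene bodies held a smaller share of every class of peaks than of known bases, by little for CT-only and by much for kept peaks. Gene bodies of any type cover 60.5% of known bases. They held the centres of 56.1% (55.1 to 57.0) of CT-only, 45.4% (43.7 to 47.1) of KD-only and 32.7% (30.9 to 34.5) of kept peaks, and of 16.5% and 16.0% of CT and KD peaks on input. Over all peaks the share was 46.6% in CT and 34.5% in KD, a difference (KD minus CT) of -12.1 percentage points. The difference was -2.24 with the widest CT peaks, as many as the KD list holds, and -0.324 among peaks off input without a repeated 24-mer.

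**Figure D4:**
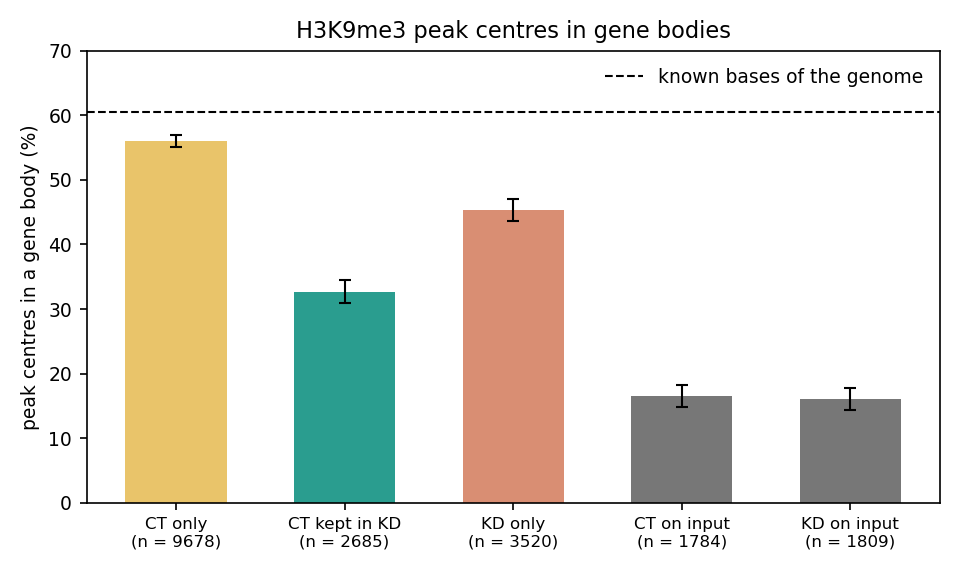
Share of H3K9me3 peak centres that lie in a gene body (y axis, percent) for CT-only, kept and KD-only peaks off input and for CT and KD peaks on input. Lines are exact 95% intervals for counting error and the dashed line is the share of known genome bases in gene bodies (60.5%), above all 5 bars.

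Promoters, taken as 1 kb either side of a transcription start, cover 3.81% of known bases. They held 3.95% (3.57 to 4.35) of CT-only and 4.12% (3.49 to 4.83) of KD-only peaks, and 0.857% (0.544 to 1.28) of kept peaks. The median distance from a peak centre to the nearest start was 27 kb for CT-only, 42.5 kb for KD-only and 80.9 kb for kept peaks, and 619 kb and 658 kb for CT and KD peaks on input. Over all peaks it was 38.8 kb in CT and 81.3 kb in KD. Exclusive peaks thus lay nearer to genes than kept peaks did, in both directions of the comparison.

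Of 20033 protein-coding genes, 2404 (12.0%) had an H3K9me3 peak off input in CT and none in KD, 557 (2.78%) had one in KD and none in CT, and 901 (4.50%) had one in each. Of the 3862 genes with a peak in either condition, 2764 had fewer peaks in KD, 463 as many and 635 more. How genes were chosen moved this split. Of 909 genes chosen for at least 2 CT peaks, 836 had fewer in KD, 54 as many and 19 more, whereas of 267 genes chosen for at least 2 KD peaks, 110 had fewer in KD, 54 as many and 103 more. At least 10 peaks were found in 10 genes in CT and in no gene in KD.

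Long genes led the CT-only class. DMD, the gene of dystrophin (chrX:31097677-33339609), had 18 CT peaks, 15 of them CT-only, and 5 KD peaks over its 2242 kb. CNTNAP2, a neurexin-family adhesion gene (chr7:146116002-148420998), had 13 CT peaks, all CT-only, and 2 KD peaks. NAALADL2 also went from 13 to 2 and PTPRD, a receptor tyrosine phosphatase gene, from 13 to 3. These counts are best read per length, since all protein-coding genes together held 3.55 CT and 1.34 KD peaks per Mb. DMD had 8.03 in CT and 2.23 in KD, CNTNAP2 had 5.64 and 0.868, and PTPRD had 5.66 and 1.31. Others of the class were EYS, a retinal gene (12 CT and 2 KD peaks), RBMS3, an RNA-binding protein gene (11 and 2), PDE4D, a cAMP phosphodiesterase gene (11 and 4), and DIAPH2, a formin gene (9 and 0). In all 8 genes the KD count was lower. The genes were picked for their CT-only peaks, so this direction is part of their choice.

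Genes of the KD-only class held few peaks. ANK3, the gene of ankyrin-G, had 4 KD-only and 3 CT peaks, with none shared. RARB, a retinoic acid receptor gene, had 4 KD-only peaks and 7 CT peaks, so its total was lower in KD. DPP10, whose product modulates potassium channels, had 5 KD peaks and 1 CT peak, and SCFD2 had 4 and 1. COL6A3 (chr2:237324003-237414328) had 4 KD and 2 CT peaks within 90.3 kb, and TULP4, PLD5 and the calcium channel gene CACNA1D had 3 KD peaks and 1 CT peak each. No gene of this class had more than 4 KD-only peaks. Picking genes by their KD-only peaks favours a higher count in KD.

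Kept peaks were most frequent in MAGI2, a synaptic scaffold gene, with 5 of its 6 CT peaks kept. THAP9 (chr4:82900684-82919969) had all 4 kept, in a gene of 19.3 kb. TENM1, a teneurin gene, had 4 of 6 kept, DSCAM, a cell adhesion gene, 4 of 5, and SPAG16, a sperm flagellum gene, 4 of 6. CCDC200 had 3 of 7 kept and RABGAP1L 3 of 6. None of the CT peaks in MAGI2, TENM1, DSCAM and CCDC200 lacked repeated 24-mers, whereas all 4 in THAP9 did.

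By density, THAP9 led with 207 CT and 207 KD peaks per Mb. MTO1, needed for modification of mitochondrial tRNA, followed with 4 CT and 0 KD peaks (83.9 and 0 per Mb). CCDC200 had 79.1 and 45.2, and RPS6KA6, a ribosomal S6 kinase gene, had 27 and 0, with all 4 of its CT peaks of the narrowest width and without repeated 24-mers. STK33, KIFAP3 and DMGDH went from 24.7, 24.4 and 21.0 per Mb in CT to 4.94, 6.10 and 8.39 in KD. NBPF26 went from 33.9 to 8.46, and its counts are uncertain because near-identical copies of this family can share reads. These genes were picked for their CT peaks per length, so a lower density in KD is favoured by their choice.

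Gene families with known clusters were also counted. H3K9me3 is known for covering zinc finger gene clusters and for the 3′ exons of these genes. Of 528 ZNF and ZFP genes, 71 (13.4%, 10.7 to 16.7) had a CT peak off input and 28 (5.30%, 3.55 to 7.57) a KD peak, against 16.5% and 7.28% of all protein-coding genes. Per Mb they held 3.77 CT and 1.43 KD peaks, beside 3.55 and 1.34 for all. Each gene was cut into 5 equal stretches from its 5′ end. Of the 84 pairs of a ZNF or ZFP gene and a CT peak in it, 26 lay in the first stretch and 16 in the last (19.0%, 11.3 to 29.1). For all protein-coding genes, the first stretch held 21.7% of 4909 CT pairs and the last 18.1% (17.0 to 19.2). The interval for the last stretch of ZNF and ZFP genes is wide and includes the share of all genes. A stretch of gene length is not the 3′ exons themselves, which were not counted. Of 31 KD pairs in ZNF and ZFP genes, 11 lay in the first stretch and 5 in the last (16.1%, 5.45 to 33.7). Of 415 olfactory receptor genes, 6 (1.45%) had a CT and 4 (0.964%) a KD peak. These genes are short, with a median of 2.38 kb against 27.5 kb for all protein-coding genes. Per Mb they held 3.85 CT and 1.92 KD peaks, from 10 and 5 peaks. Of 39 HOX genes, 2 (5.13%) had a CT and 3 (7.69%) a KD peak, none of them with both. Per Mb the HOX genes held 6.06 peaks in each condition, from 2 peaks each. Among 53 clustered protocadherin genes, 1 CT peak lay within 7 overlapping genes, and none had a KD peak. These genes overlap and together cover 0.474 Mb, so the absence of KD peaks there says little.

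Peaks on coding exons were few, and several lay in muscle disease genes and in THAP9. These peaks were singled out after their values were seen. Positions alone do not tell H3K9me3 signal at an exon from other DNA of that exon in the libraries, such as amplicons, cDNA or plasmid, and carry-over of such DNA was not tested. Coding exons of protein-coding genes held 87 of 12363 CT peaks off input (0.704%) and 32 of 6206 KD peaks (0.516%), beside the 1.22% of known bases that lie in coding exons. In CT, 8 genes had 2 or more such peaks. Among them were DMD with 6, LAMA2 and THAP9 with 4, CAPN3 and DYSF with 3, and COL6A3 and POMT2 with 2. In KD, THAP9 had 4, COL6A3 had 3 and LAMA2 and GAGE10 had 2. Of the CT genes named, all but THAP9 are known for muscular dystrophy or related myopathy, as genes of dystrophin, of laminin and collagen VI around muscle fibres, of the membrane repair protein dysferlin, of the protease calpain 3 and of an enzyme that adds sugar to dystroglycan.

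A list of 40 genes known for muscular dystrophy was then counted, written after these genes had been seen, so its counts are a description. Its coding exons make up 0.780% of all coding exon bases. They held 28 of the 87 CT peaks (32.2%, 22.6 to 43.1) in 13 genes and 14 of the 32 KD peaks (43.8%, 26.4 to 62.3) in 11 genes. Beyond the genes above, CT peaks also lay in ANO5, DAG1, MYOT, POMT1, TMEM43 and TRAPPC11, and KD peaks in MYOT, PABPN1, SYNE1 and TRAPPC11. Most were exclusive, since 25 of the 28 were CT-only and 11 of the 14 KD-only.

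In DMD, 6 of the 18 CT peaks lay on coding exons, which make up 0.520% of the gene. They were on 6 different exons, 161 to 304 bp wide, without repeated 24-mers and in no CTCF, H3K4me3, H3K27me3 or input list. An example is chrX:31657969-31658204, which covered all 155 bp of the exon at chrX:31657990-31658144. The KD peak on a DMD coding exon (chrX:32463507-32463663) was on another exon. The 3 DYSF peaks were in no other list either, whereas both CT peaks and all 3 KD peaks of COL6A3 also lay in the H3K4me3 and H3K27me3 lists of CT. Both conditions had peaks in COL6A3, and none of the DYSF peaks had a KD counterpart.

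THAP9, a gene derived from a P element transposase, had the widest H3K9me3 peak off input in both conditions. It ran over 1890 bp in CT (chr4:82916988-82918877) and 1957 bp in KD (chr4:82916954-82918910), wholly within the last coding stretch of the gene (chr4:82916944-82918921, 1978 bp), of which it covered 95.6% and 98.9%. LIN54 overlaps this place on the other strand. The other 3 THAP9 peaks, 176 to 340 bp in CT and 206 to 350 bp in KD, each covered a whole coding stretch of 151 to 304 bp. The wide peak was present in every CTCF and histone list used, 10 in all, and not in the input list. All 4 THAP9 peaks in each condition lacked repeated 24-mers. Whether peaks that follow the coding exons this closely are H3K9me3 signal or carried-over DNA was not tested.

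Shared peaks without repeated sequence were few. Of the 10 such CT peaks, 7 lay on coding exons, among them 4 in THAP9 and 1 each in COL6A3 and MYOT. The others lay within PEX11G on chromosome 19, between genes on chromosome 17 and on mitochondrial DNA. Of the 12 such KD peaks, 7 lay on coding exons of the same genes.

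CGGBP1 itself, the gene targeted in KD, had 1 H3K9me3 peak in each condition, and both overlapped input. The peak was 331 bp in CT (chr3:88055565-88055895) and 411 bp in KD (chr3:88055541-88055951). Both lay wholly within the single coding exon of the gene (chr3:88055476-88055976, 501 bp). The same place was in the CTCF lists of both conditions and in the H3K27me3 list of CT, and in no H3K4me3 list. As for THAP9, plasmid or cDNA as a source of this exon-bound peak was not tested. The lists do not measure the level of CGGBP1 in either condition.

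A larger share of H3K9me3 peaks lay on CTCF peaks in KD than in CT. Of CT peaks, 31.8% (31 to 32.6) overlapped a CTCF peak of CT, and of KD peaks 48.7% (47.6 to 49.8) overlapped a CTCF peak of KD. Within 10 kb of such a peak were 54.6% of CT and 68.2% of KD peaks, a difference of 13.6 percentage points. The difference turned to -1.68 percentage points with the widest CT peaks, as many as the KD list holds. It turned to -2.82 with the CTCF lists that the authors made from repeat-masked sequence. The number of CT peaks on CTCF was higher than that of KD peaks, 4626 against 4068, so the larger share in KD came with fewer peaks.

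CTCF overlap also differed between the classes. Off input, CTCF peaks of CT overlapped 65.1% (63.3 to 66.9) of kept and 11.2% (10.6 to 11.8) of CT-only peaks. CTCF peaks of KD overlapped 21.1% (19.8 to 22.5) of KD-only peaks. On input, 88.2% of CT and 91.5% of KD peaks overlapped CTCF of the same condition. The repeat-masked CTCF lists gave another picture, with 0.904% (0.586 to 1.33) of kept, 1.21% (1 to 1.45) of CT-only and 1.92% (1.5 to 2.42) of KD-only peaks. Per the labels the masked lists were also called at another p threshold, 0.001 in place of 0.0025. Masking and threshold thus both differ, and their parts were not tested separately. Among CT-only peaks without a repeated 24-mer the lists differed little, with 106 of 4048 on CTCF of CT and 98 on its masked list. Among those with only repeated 24-mers, 620 of 2047 lay on CTCF of CT and 4 on its masked list.

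Repeats and CTCF overlap went together in the exclusive peaks. Of CT-only peaks without a repeated 24-mer, 2.62% of 4048 overlapped CTCF of CT, of those with some 9.95%, and of those with only repeated 24-mers 30.3%. In KD-only peaks the shares were 5.94%, 22.2% and 36.3%. In kept peaks with some and with only repeated 24-mers they were 64.8% and 66.0%, so kept peaks exceeded exclusive ones within the same class of repeat. Kept peaks on CTCF lay mostly on CTCF peaks called in both conditions, 43.7% of all kept peaks, with 21.4% on CTCF of CT alone and 9.83% on CTCF of KD alone.

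Seen from CTCF, fewer sites had an H3K9me3 peak nearby in KD whichever way the CTCF peak went. The H3K9me3 lists off input hold 12589 peaks in CT and 6357 in KD. A shorter list by itself lowers the share of sites with a peak nearby. Whether CTCF sites differ from other places in this was not tested. Of 21416 CTCF peaks found in CT alone, 16.0% (15.5 to 16.5) had an H3K9me3 peak off input within 10 kb in CT and 10.5% (10.1 to 10.9) in KD. Of 21562 CT CTCF peaks also found in KD, the shares were 18.7% and 15.4%. Of 26083 CTCF peaks found in KD alone, they were 12.5% and 8.56%. Direct overlap changed less, from 5.61% to 4.50% of CTCF peaks of CT alone and from 7.78% to 7.86% of those in both.

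The other histone marks showed the same order of classes. H3K4me3, a mark of active promoters, overlapped 41.6% of kept, 7.16% of CT-only and 14.8% of KD-only peaks with the list of the same condition. H3K27me3, a mark of Polycomb repression, overlapped 51.4%, 2.60% and 10.6%. Kept peaks on CTCF, H3K4me3 and H3K27me3 of CT at once were 29.5% of the class, CT-only peaks 0.641%, and CT peaks on input 80.7%. No CTCF, H3K4me3, H3K27me3 or input peak of either condition overlapped 79.2% (78.4 to 80) of CT-only, 57.5% (55.8 to 59.1) of KD-only and 16.0% (14.6 to 17.4) of kept peaks. Input peaks lay within 10 kb of 19.2% of kept, 6.07% of CT-only and 13.4% of KD-only peaks, although none of these overlapped one. Peaks shared between the H3K9me3 libraries were thus also those found with other antibodies, and the part of signal common to all libraries in the sharing was not tested.

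**Figure D5:**
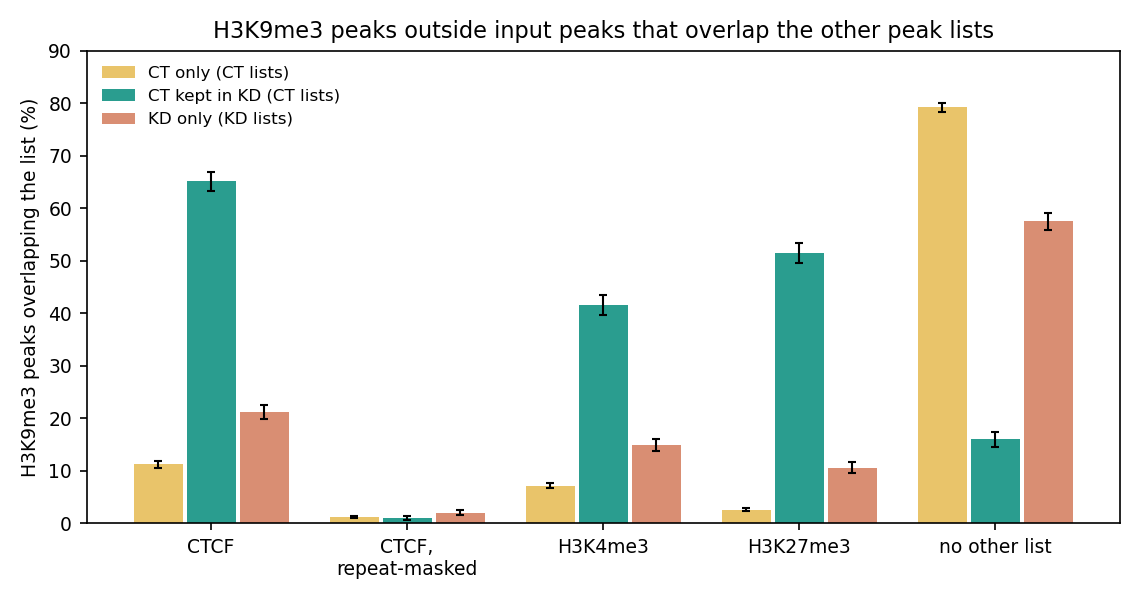
Share of H3K9me3 peaks off input (y axis, percent) that overlap the CTCF, repeat-masked CTCF, H3K4me3 and H3K27me3 peaks of the same condition, or no CTCF, H3K4me3, H3K27me3 or input peak of either condition, for CT-only (yellow), kept (green) and KD-only (orange) peaks. Lines are exact 95% intervals for counting error. Kept peaks are highest for CTCF (65.1%), H3K4me3 and H3K27me3, CT-only peaks are highest for no other list (79.2%), and all classes lie at 1.92% or lower for repeat-masked CTCF.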

How the data were processed

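ChIP DNA of HEK293T cells and 1 input were sequenced on an Ion Torrent instrument. The authors mapped the reads to hg38 with Bowtie2, called peaks in each library with MACS2 and compared lists with bedtools. Versions are not given in the sources used here. The labels give a p threshold of 0.001 for the histone and input lists and 0.0025 for the CTCF lists of CT and KD (0.001 for their repeat-masked lists), whereas the methods give another for unmasked reads. The deposited lists hold positions in bp, and no score, height or p-value per peak. Read totals were not used. CTCF lists made from repeat-masked sequence served as an alternative. Lists of exclusive CTCF peaks and of cells that overexpress CGGBP1 were not used here.

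Starts were read as counted from 0 and are printed counted from 1. Overlap was at least 1 bp, distance ran between nearest edges, and a peak was on input when it overlapped an input peak. Shares have exact Clopper-Pearson 95% intervals. No test between conditions was made, since each has 1 library. Genes and features came from GENCODE release 44 by peak centre on chromosomes 1 to 22, X and Y. RepeatMasker was not run, and repeats were measured as 24-mers with at least 10 occurrences in hg38. Steps were run in Python 3.11.15 with numpy 2.4.6, scipy 1.17.1, numba 0.67.0 and pysam 0.24.0 and tested on simulated data.

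The members, lists and tests were chosen with earlier results of these data known. Named genes were the 8 protein-coding genes with most CT-only, KD-only or kept peaks off input and the 8 with most CT peaks per length among those with at least 4, outside chromosomes 8 and Y. Some genes and sequences are not reported here. Coding exon peaks, the muscular dystrophy list, CGGBP1, RERE, MOCOS, FRAS1 and PEX11G were added after values were seen. Alternatives left out peaks on input, other sequences, narrow peaks or peaks without repeats, joined near peaks, or changed the overlap, distance, gene set, CTCF list and copy minimum.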

Additional observations from a re-analysis of the deposited data

How the results depend on the processing

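No paired analysis was possible because each condition has 1 library. Intervals cover counting error over peaks only, and the spread between libraries of a condition is unknown. Peaks near each other or on copies of a repeat can also depend on each other. Without peaks on input in either list, the shared share was 22% of CT and 43.4% of KD peaks, the number ratio 0.505, the median width difference 16.0 bp, the CTCF difference 11.3 percentage points and the 24-mer difference 17.9. On chromosomes 1 to 22, X and Y the CT share was 30.7%. With the widest CT peaks, as many as the KD list holds, the shares were 51.1% and 50.8%. The width difference turned to -21.0 bp, which follows from picking CT peaks by width. The CTCF difference turned to -1.68, the gene difference was -2.24 and the 24-mer difference 1.08. With near peaks joined the CT share was 30.5%. With 50% overlap of both peaks the shares were 30.0% and 52.3%, and within 1 kb they were 33.6% and 58.0%. With protein-coding genes alone the gene difference was -10.1. The CTCF difference was 18.5 with the CT list for both, 16.7 at 1 kb and 3.43 at 50 kb. It turned to -2.82 with the repeat-masked lists, which were also called at another threshold and favour a lower value in KD. With at least 100 occurrences the 24-mer difference was 12.4.

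Alternatives chosen after seeing the data left out peaks on input together with others, in both lists. Their shares can therefore differ from those given above, where overlap was counted with the whole list of the other condition. Among peaks without a repeated 24-mer, the shares were 0.246% and 0.890%, the ratio 0.277, the width difference turned to -4.00 bp, the gene difference was -0.324 and the CTCF difference 6.30. Without the narrowest peaks, the KD share was 49.6%, the ratio 0.627, the width difference 2 bp, the gene difference -8.43, the CTCF difference 6.91 and the 24-mer difference 12.5. The cause was not tested in any of these.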
